A study of Mus musculus with 6 samples.

Results

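Forkhead box (Fox) genes encode transcription factors that bind DNA through a winged-helix domain. They were followed through 3 sorted cell populations of the mouse hair follicle. The members were all genes whose platform symbol is Fox, 1 letter and a number, and each was read through its single-gene probe set with the highest mean over the arrays. This gave 37 Fox genes of the 18193 genes with a probe set of their own. They are represented by 82 probe sets, and 21 of the 37 genes have 2 or more.

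The populations came from the back skin of untreated female CD-1 mice and were purified by flow cytometry. Quiescent hair follicle stem cells (qHF-SC) were taken at postnatal days 52 to 60 and sorted with integrin α6 and CD34. Activated stem cells (aHF-SC) were taken at postnatal days 28 to 30 and sorted with GFP, integrin α6 and CD34. Transient-amplifying matrix cells (HF-TAC), the dividing progeny at the base of the growing follicle, had that same age and were sorted with GFP, integrin α6 and ephrinB1. The labels state neither which transgene carried GFP nor which side of a gate was kept. Age and sorting scheme cannot be told apart from quiescence in any comparison with qHF-SC. In HF-TAC against aHF-SC the sorting scheme, with ephrinB1 or CD34, cannot be told apart from cell state. Each group held 2 arrays, values are given as replicate 1 and then replicate 2, and nothing in the labels says that replicates came from separate animals. The p-values therefore measure only the spread between these arrays.

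Several Fox factors have known roles in this tissue. Foxn1 is the gene of the nude mouse and drives differentiation of matrix cells into hair shaft, and Foxq1 is the gene of the satin mouse, whose hair has a defective medulla. Foxc1 and Foxp1 hold hair follicle stem cells in, or return them to, quiescence. FoxO factors are excluded from the nucleus when the kinase Akt phosphorylates them downstream of PI3 kinase, and otherwise activate genes of cell cycle arrest, stress defence and metabolism. Foxm1 acts with the MuvB complex on genes of G2 and mitosis. Foxi3 and Foxe1, which also act in the follicle, were not analysed here.

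Expression was measured as probe set intensity on a linear scale. A background level of 32.5 was set from 27 genes chosen as silent. It is the 75th percentile of their intensities on the array where this percentile was highest. Whether skin uses any of them was not tested. Depending on the group, 6 or 7 of the 27 had a mean above the level. Among them were Pomc (group means of 41.0 to 48.3), Prm1 (60.0 to 62.8) and Ins2 (92.3 to 105). Being above the level therefore does not set a gene with means in this range apart from the silent list. A group whose mean lay at or under this level was called at background. Levels of different probe sets are not compared with each other, because each has its own affinity. Cd34, a sorting marker of the stem cells, had intensities of 7186 and 8557 in qHF-SC, 2385 and 3250 in aHF-SC, then 15.3 and 25.7 in HF-TAC. The 7 hair matrix markers summed to 575 to 762 in qHF-SC, 1389 to 1556 in aHF-SC and 5308 to 8353 in HF-TAC. From qHF-SC to aHF-SC their means changed unequally. Mki67 went from 34.7 to 241, Top2a from 48.8 to 303, Dlx3 from 145 to 315 and Hoxc13 from 294 to 446. Msx2 had 88.6 and 93.0, Lef1 had 35.5 and 42.4, and Shh had 22.3 and 31.4, at background. In bulk samples, fewer cells of a type and less RNA per cell cannot be told apart.

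Markers of other cells also differed between the groups. The 6 dermal fibroblast markers summed to 422 to 529 in qHF-SC, 372 to 646 in aHF-SC and 3803 to 6324 in HF-TAC. Of these, Dcn gave 3646 and 5927 in HF-TAC, while the fibroblast markers Lum and Pdgfra were at background in all groups. The collagens were not highest in HF-TAC. In qHF-SC, aHF-SC and HF-TAC the means were 46.2, 66.5 and 41.5 for Col1a1 and 330, 153 and 109 for Col1a2. Those of Col3a1 were 52.1, 198 and 104. The 6 pericyte and smooth muscle markers summed to 742 to 800 in qHF-SC, 2830 to 4971 in aHF-SC and 403 to 543 in HF-TAC. Acta2 had means of 44.2, 2160 and 201 in these groups and Tagln had 38.4, 1142.5 and 125. Cspg4, with means of 622, 534 and 83.1, made up most of the sum in qHF-SC and was lowest in HF-TAC. The 6 differentiated keratinocyte markers summed to 15193 to 15997 in qHF-SC, 4782 to 5526 in aHF-SC and 13449 to 22807 in HF-TAC. The 5 melanocyte markers summed to 200 to 246 in qHF-SC, then 301 to 368 in aHF-SC and 455 to 644 in HF-TAC, with Dct at means of 96.0, 198 and 345. Of 6 markers each, 4 immune, 5 endothelial and 5 dermal papilla markers were at background in every group, among them Ptprc, Pecam1, Corin and Sox2. The others, above background in at least 1 group, were immune Laptm5 (means of 71.7, 70.7 and 48.2) and Cd3e (39.2, 36.5 and 41.2), endothelial Kdr (42.2, 36.8 and 32.3) and dermal papilla Hhip (38.9, 27.5 and 10.8). The part of these other cells in the Fox results was not tested.

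Of the 37 Fox genes, 18 were at background in every group. This is 48.6% of the family, where 36.6% of all 18193 genes were. The other 19 were above background in at least 1 group, 17 of them in all 3 groups. Foxn1 was above background in HF-TAC alone, and Foxl2, with intensities of 29.1 to 38.0 over the 6 arrays, lay around the level.

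**Figure D1:**
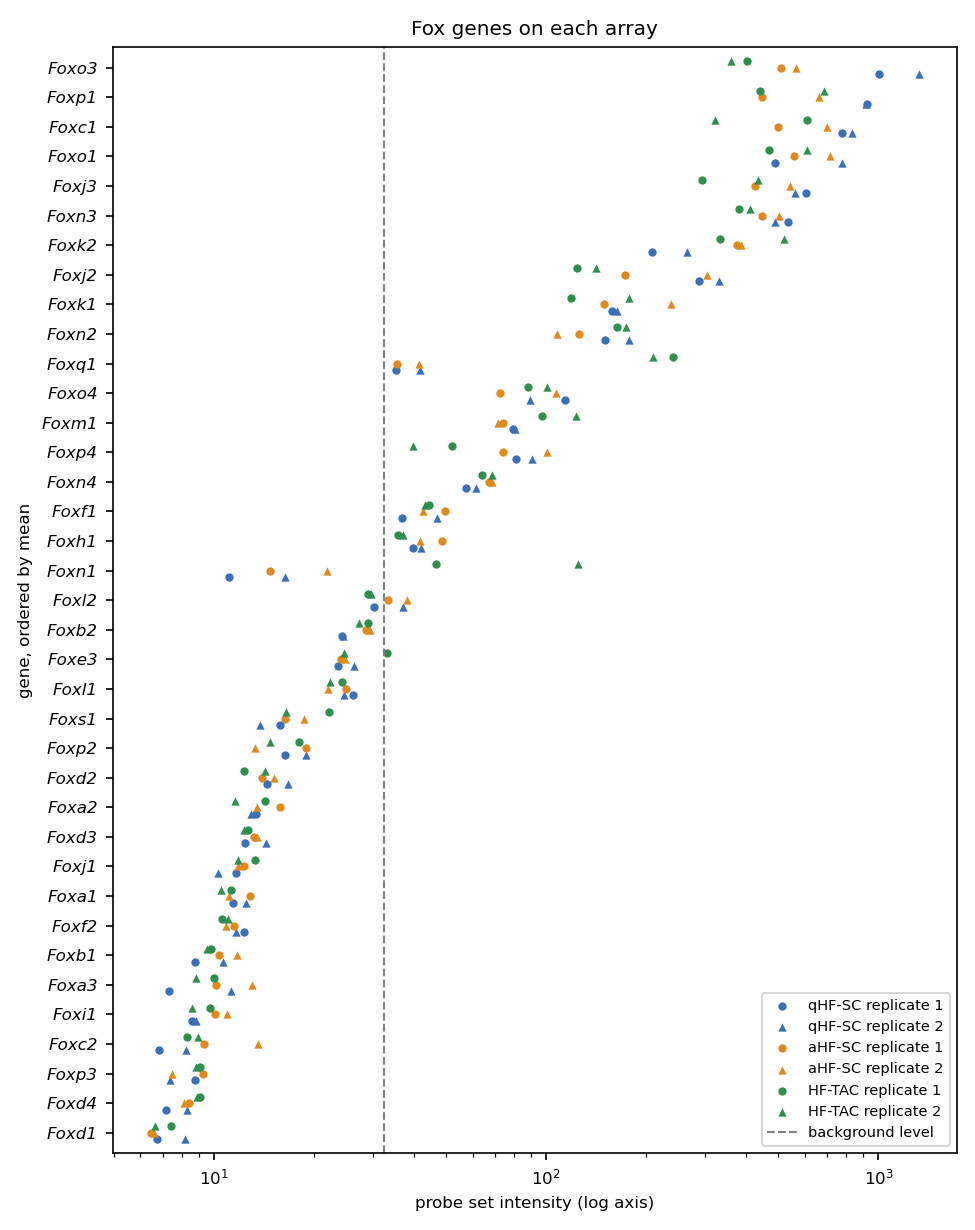
Intensity (log axis) of the 37 Fox genes on each of the 6 arrays, in order of their mean; colour gives the group and the marker gives the replicate. The dashed line is the background level of 32.5: 18 genes have group means at or below it in all 3 groups, and Foxq1 and Foxn1 have HF-TAC arrays far to the right of the stem cell arrays.

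Foxq1 and Foxn1 were higher in matrix cells than in either stem cell group, and Foxp4 was lower. All tests used limma on log2 intensities with Benjamini-Hochberg adjustment over all 18193 genes and a threshold of 0.05. In aHF-SC against qHF-SC, 0 Fox genes were higher, with 3.07% of all genes called higher, and 1 was lower, Foxo3, with 3.21% of all genes called lower. At an unadjusted p under 0.05 there were 5 Fox genes in that comparison in either direction. In HF-TAC against aHF-SC, 2 Fox genes were higher, Foxq1 and Foxn1, with 8.97% of all genes called higher. Foxp4 alone was lower, with 8.57% of all genes called lower. In HF-TAC against qHF-SC, 3 were higher, Foxq1, Foxn1 and Foxk2, with 13.4% of all genes called higher. Another 3 were lower there, Foxo3, Foxj2 and Foxp4, with 12.9% of all genes called lower. The family's median log2 difference was 0.0087 in aHF-SC against qHF-SC, where that of all genes was 0.0048. It was -0.073 in HF-TAC against aHF-SC, where that of all genes was -0.012, and -0.078 in HF-TAC against qHF-SC, where that of all genes was -0.0089. The 3 comparisons share arrays and are not independent of each other.

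**Figure D2:**
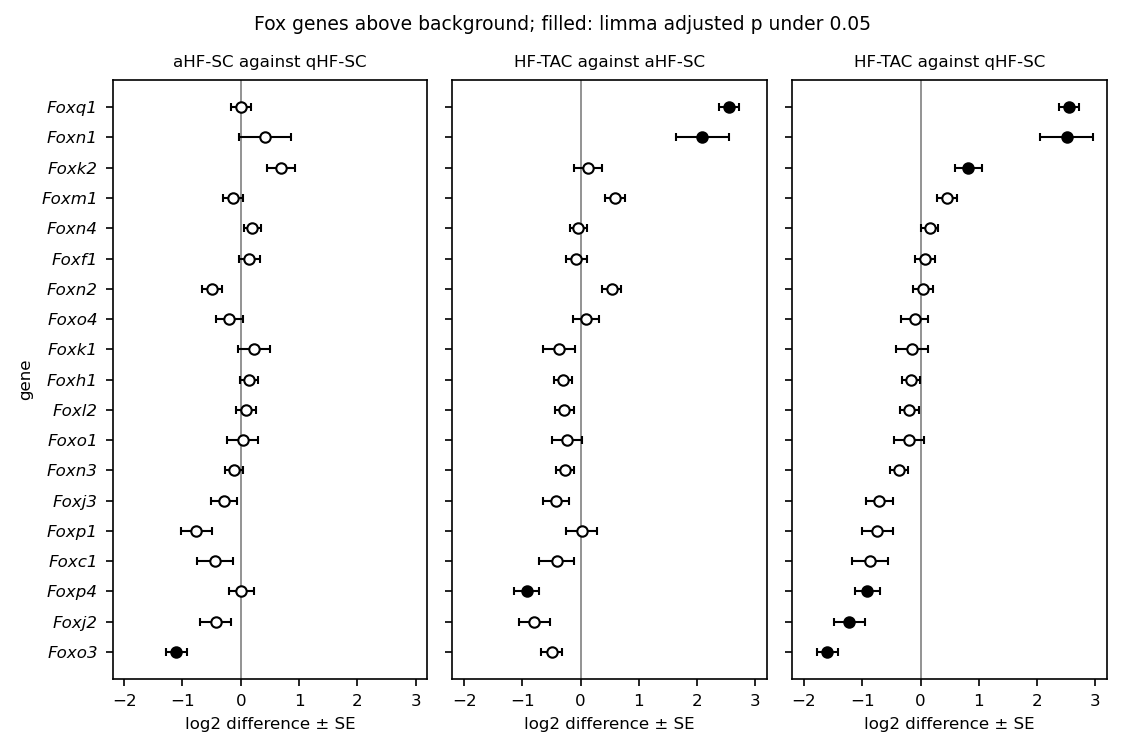
Log2 difference ± SE (x axis) in the 3 comparisons for the 19 Fox genes above background in at least 1 group, ordered by the difference in HF-TAC against qHF-SC; filled points passed limma's adjusted p of 0.05. Foxq1 and Foxn1 lie above 2 in both HF-TAC comparisons, and Foxo3 lies lowest in both comparisons with qHF-SC.

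Proximal promoters are shown for Foxn1 and Foxo3, which were called, and for Foxp1, which was not called at gene level and has several annotated starts. Each is the 250 bases before the annotated start, 5′ to 3′, from RefSeq annotation of mouse genome build GRCm38.p6. Capitals mark the forkhead core motif (TGTTTA, or TAAACA on the other strand) and the CCAAT box (CCAAT, or ATTGG on the other strand), which do not overlap each other. Foxp1 is shown at 3 starts, and which start each of its probe sets reads was not tested. Foxq1 and Foxm1 are named without a promoter.
Foxn1, chr11:78386609-78386858, minus strand: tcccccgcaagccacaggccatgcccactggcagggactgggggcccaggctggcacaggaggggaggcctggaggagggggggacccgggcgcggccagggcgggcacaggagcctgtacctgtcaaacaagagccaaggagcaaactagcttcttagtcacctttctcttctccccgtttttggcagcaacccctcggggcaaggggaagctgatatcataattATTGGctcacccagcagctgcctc
Foxo3, chr10:42276696-42276945, minus strand: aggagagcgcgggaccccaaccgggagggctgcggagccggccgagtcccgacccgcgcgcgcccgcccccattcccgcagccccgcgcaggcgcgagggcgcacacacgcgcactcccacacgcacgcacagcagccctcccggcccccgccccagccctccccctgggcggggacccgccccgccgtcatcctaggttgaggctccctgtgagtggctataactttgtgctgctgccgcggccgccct
Foxp1 distal start, chr6:99520994-99521243, minus strand: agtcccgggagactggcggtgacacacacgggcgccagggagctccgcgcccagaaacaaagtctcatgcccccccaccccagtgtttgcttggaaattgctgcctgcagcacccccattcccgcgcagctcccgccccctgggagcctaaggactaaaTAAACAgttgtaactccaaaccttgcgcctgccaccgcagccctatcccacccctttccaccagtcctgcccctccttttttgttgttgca
Foxp1 middle start, chr6:99266516-99266765, minus strand: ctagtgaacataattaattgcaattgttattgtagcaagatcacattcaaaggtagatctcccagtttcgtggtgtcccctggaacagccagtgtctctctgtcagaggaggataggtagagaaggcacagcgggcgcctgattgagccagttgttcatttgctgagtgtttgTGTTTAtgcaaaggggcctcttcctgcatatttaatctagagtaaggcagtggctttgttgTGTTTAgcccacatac
Foxp1 proximal start, chr6:99028299-99028548, minus strand: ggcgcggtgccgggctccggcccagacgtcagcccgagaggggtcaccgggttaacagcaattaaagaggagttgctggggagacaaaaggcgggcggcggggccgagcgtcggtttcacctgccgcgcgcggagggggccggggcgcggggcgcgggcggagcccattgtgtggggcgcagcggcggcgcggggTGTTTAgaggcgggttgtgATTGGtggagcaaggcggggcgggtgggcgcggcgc

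The forkhead core was present in 12.0% of 32851 windows of this length and in 5 of 29 windows of Fox genes. Of 24 Fox genes with a window, 3 held it, Foxa1, Foxp1 and Foxp3, and each of the 3 Foxp1 windows held it at least once. A CCAAT box was present in 33.8% of all windows and in 13 of the 29 windows of Fox genes. These belonged to 13 of the 24 Fox genes, Foxn1 included. The Foxo3 window held neither motif. A match describes the letters and is not a measured binding site.

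Foxq1 and Foxn1, the Fox factors of hair shaft formation, rose in matrix cells. Foxq1 had intensities of 35.3 and 41.5 in qHF-SC, 35.5 and 41.4 in aHF-SC, then 240.3 and 209.8 in HF-TAC. Both HF-TAC arrays were far above all 4 stem cell arrays, and the stem cell groups overlapped just above background. The log2 difference was 2.55 ± 0.17 (SE) between HF-TAC and aHF-SC, a 5.86-fold rise with a limma adjusted p of 0.00027. Against qHF-SC the rise was also 5.86-fold, with a limma adjusted p of 0.00011. The second Foxq1 probe set gave log2 differences of 2.59 and 2.69, with both stem cell groups at background.

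Foxn1 had intensities of 11.0 and 16.3 in qHF-SC, 14.7 and 21.9 in aHF-SC, then 46.7 and 125 in HF-TAC. All 4 stem cell arrays lay under the background level and both HF-TAC arrays above it, with a wide gap between the HF-TAC arrays. Its folds are therefore taken against a background signal. Against qHF-SC the rise was 2.51 ± 0.45 (SE) on the log2 scale, or 5.68-fold, with a limma adjusted p of 0.0060. Against aHF-SC it was 2.09 ± 0.45, or 4.25-fold, with a limma adjusted p of 0.019. This second call was lost when either aHF-SC array was left out, with an adjusted p of 0.098 for replicate 1 and 0.053 for replicate 2. It was also lost with 20 added to each intensity before log2 (1.37, adjusted p 0.084). Without HF-TAC replicate 1 the log2 differences were 3.22 against qHF-SC and 2.80 against aHF-SC, and without HF-TAC replicate 2 they were 1.80 and 1.38. With 20 added the difference from qHF-SC was 1.55 (adjusted p 0.045). The other Foxn1 probe set was higher in HF-TAC by 1.11 and 1.56 on the log2 scale, with a group mean of 30.7 in HF-TAC, under the background level.

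Some genes of the hair shaft programme, the regulators and keratins that surround Foxn1 and Foxq1 in the matrix, were called higher in HF-TAC. Of 20 measured members, 7 were higher and 0 lower against aHF-SC, where 8.97% and 8.57% of all genes were, with a median log2 difference of 0.73. Against qHF-SC 10 were higher and 0 lower, where 13.4% and 12.9% of all genes were, with a median of 1.08. The keratin Krt35 had a mean intensity of 14.1 ± 2.97 (SD, n = 2) in qHF-SC, 149.9 ± 72.5 in aHF-SC, then 6032 ± 3540 in HF-TAC, and the limma adjusted p was 0.00069 for HF-TAC against aHF-SC. Lef1, the Wnt effector, rose 12.7-fold over aHF-SC, from 42.4 ± 1.32 to 564 ± 232. The homeobox genes Msx1 and Msx2 rose over aHF-SC by 3.06 and 3.08 on the log2 scale. With probe sets averaged per gene these were 2.15 and 1.64, and Msx1 was 1.24 without _x_at and _s_at probe sets. Krt35 rose by 5.28, or by 5.92 and 4.65 on leaving out HF-TAC replicates 1 and 2. The calls of these 4 genes held when any 1 array was left out. The count against aHF-SC was 4 without aHF-SC replicate 2 and 11 without HF-TAC replicate 1. Activated stem cells had 1 member higher than quiescent ones and 0 lower, where 3.07% and 3.21% of all genes were. That member was Krt35, no longer called once qHF-SC replicate 1 (adjusted p 0.051) or 2 (adjusted p 0.067) was left out, and the count was 3 without HF-TAC replicate 1 or 2.

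The ectodysplasin and Hedgehog list, 14 measured genes of signals that reach the matrix, had 3 higher and 1 lower in HF-TAC than in aHF-SC, where 8.97% and 8.57% of all genes were. The Hedgehog ligand Shh rose from 31.4 ± 11.9 in aHF-SC, at background, to 821 ± 121 (SD, n = 2), with a limma adjusted p of 0.00026. Its log2 difference of 4.75 was 4.04 with 20 added to each intensity and 2.45 with its probe sets averaged. Tnfrsf19, a receptor related to that of ectodysplasin, rose by 5.14 on the log2 scale, from 37.8 ± 8.94 to 1315 ± 119, or by 4.53 with 20 added and 2.97 with its probe sets averaged. Against qHF-SC 5 members were higher and 2 lower, beside 13.4% and 12.9% of all genes, or 2 higher and 1 lower without qHF-SC replicate 1 or 2. Against aHF-SC the count was 5 higher and 1 lower without HF-TAC replicate 1, and 3 higher and 4 lower without HF-TAC replicate 2. Between the stem cell groups 0 members were called. An unadjusted limma p under 0.05 was found for 2 of the 14, beside 3685 of all 18193 genes.

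The FoxO genes behaved unequally. Foxo3 had intensities of 1007 and 1321 in qHF-SC, 510 and 565 in aHF-SC, then 401 and 359 in HF-TAC, and no array of one group overlapped another. From qHF-SC to HF-TAC Foxo3 fell 3.04-fold (log2 -1.60 ± 0.18, limma adjusted p 0.00084), and this held when any 1 array was left out. From qHF-SC to aHF-SC it fell 2.15-fold (log2 -1.10 ± 0.18, limma adjusted p 0.019). With the mean of the 3 Foxo3 probe sets the first difference was -0.97 (adjusted p 0.012). The second call was lost when qHF-SC replicate 2 (adjusted p 0.13), aHF-SC replicate 1 (0.099) or aHF-SC replicate 2 (0.064) was left out. It also ended with the mean of the probe sets (-0.60, adjusted p 0.15). Between aHF-SC and HF-TAC the log2 difference of -0.50 ± 0.18 did not pass (limma adjusted p 0.12). A second probe set was lower by -1.43 in HF-TAC than in qHF-SC, and the third gave 0.11 at a mean intensity of 27.0, under the background level.

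Foxo1 and Foxo4 passed no test. Foxo1 had intensities of 487 and 775 in qHF-SC, 555 and 713 in aHF-SC, then 469.6 and 609 in HF-TAC. Foxo4 had 114 and 89.1 in qHF-SC, 72.8 and 107 in aHF-SC, then 88.1 and 101 in HF-TAC. For both genes the groups overlapped and each difference was smaller than its SE.

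Of 20 measured genes of PI3 kinase and Akt input, the kinases and adaptors that signal to FoxO factors, 0 were higher and 7 lower in HF-TAC than in qHF-SC. Of all genes 13.4% were higher and 12.9% lower there, and the list's median log2 difference was -0.23. The number lower was 4 without qHF-SC replicate 1 or 2. Pik3r1, the regulatory subunit of PI3 kinase, fell 6.95-fold, from 1353 ± 449 to 191 ± 32.7 (SD, n = 2), with a limma adjusted p of 0.00033. Sgk3, a kinase related to Akt, fell 2.28-fold, and both calls held when any 1 array was left out. Against aHF-SC 0 were higher and 2 lower in HF-TAC, Pik3r1 and Sgk1, a share of the list near the 8.57% of all genes called lower, with 0 lower without aHF-SC replicate 2 and 1 lower without aHF-SC replicate 1 or HF-TAC replicate 2. From quiescent to activated stem cells 0 were higher and 2 lower, Pik3r1 and Pik3cb, where 3.07% and 3.21% of all genes were. None was called there without qHF-SC replicate 2, aHF-SC replicate 1 or aHF-SC replicate 2, and 1 was lower without qHF-SC replicate 1.

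Known FoxO target genes were called in both directions. Of 24 measured, 5 were higher and 8 lower in HF-TAC than in qHF-SC, where 13.4% and 12.9% of all genes were, with a median of -0.31 on the log2 scale. The higher count was 3 and 2 on leaving out qHF-SC replicates 1 and 2, with 6 lower in each case. Cited2, a coregulator that binds CBP and p300, fell 5.55-fold, from 4920 ± 778 to 896 ± 232 (SD, n = 2), and Txnip, an inhibitor of thioredoxin and glucose uptake, fell by 2.27 on the log2 scale, or by 2.90 and 1.64 on leaving out HF-TAC replicates 1 and 2. Gadd45a, a stress and DNA damage gene, rose 4.66-fold, from 56.7 ± 16.3 to 259 ± 1.63, and Cdkn1a, the cyclin-dependent kinase inhibitor p21, rose 4.56-fold, from 380.3 ± 16.8 to 1750.3 ± 331. These 4 calls held when any 1 array was left out. Against aHF-SC 3 targets were higher and 4 lower in HF-TAC, beside 8.97% and 8.57% of all genes, with 2 lower without aHF-SC replicate 1 and 1 lower without aHF-SC replicate 2. Fbxo32, a ubiquitin ligase, rose 4.33-fold there and Cited2 fell 3.63-fold. Comparing activated with quiescent stem cells, 1 target was higher, Gadd45a, and 2 were lower, Bcl6 and Pink1, beside 3.07% and 3.21% of all genes. Without qHF-SC replicate 2, 0 targets were called in that comparison, and the counts lay between 1 and 2 higher and 1 and 3 lower without each other array.

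Foxp4 was lower in matrix cells than in either stem cell group, while Foxp1 and Foxc1 passed no test at gene level. Foxp1 had intensities of 924 and 919 in qHF-SC, 446 and 663 in aHF-SC, then 441 and 687 in HF-TAC. Both qHF-SC arrays were above the other 4, and aHF-SC and HF-TAC overlapped. The log2 differences from qHF-SC, -0.76 ± 0.27 for aHF-SC (limma adjusted p 0.16) and -0.74 ± 0.27 for HF-TAC (limma adjusted p 0.083), did not pass. The HF-TAC difference passed with the mean of the gene's 8 probe sets (-0.84, adjusted p 0.019) and without HF-TAC replicate 2 (-1.06, adjusted p 0.034).

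Probe sets of Foxp1 were then tested singly among 34945 probe sets with 1 gene symbol. In HF-TAC against qHF-SC 5 of the 8 were lower, with 10.9% of all probe sets called lower. One of these, with a mean intensity of 13.7 and 18.0 in qHF-SC, was under the background level in every group. In aHF-SC against qHF-SC 2 of the 8 were lower, with 2.82% of all probe sets called lower. In HF-TAC against aHF-SC 0 of the 8 were lower at the threshold, with 6.64% of all probe sets called lower. Of the 5, the probe set with a mean intensity of 226 was lower by -1.38 on the log2 scale (limma adjusted p 0.0026) and that with a mean of 28.6 by -1.71 (0.0014), and both calls held when any 1 array was left out. The latter had means of 51.9 in qHF-SC, then 17.7 in aHF-SC and 16.2 in HF-TAC, so its difference is against a background signal. The counts in HF-TAC against qHF-SC were 3 and 2 on leaving out qHF-SC replicates 1 and 2, 3 without HF-TAC replicate 1 and 6 without HF-TAC replicate 2. In aHF-SC against qHF-SC the count was 0 without either qHF-SC array or aHF-SC replicate 1, and 4 without either HF-TAC array. The probe sets with mean intensities of 253 and 185 gave 0.058 and -0.024 on the log2 scale in HF-TAC against qHF-SC and were not called.

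**Figure D3:**
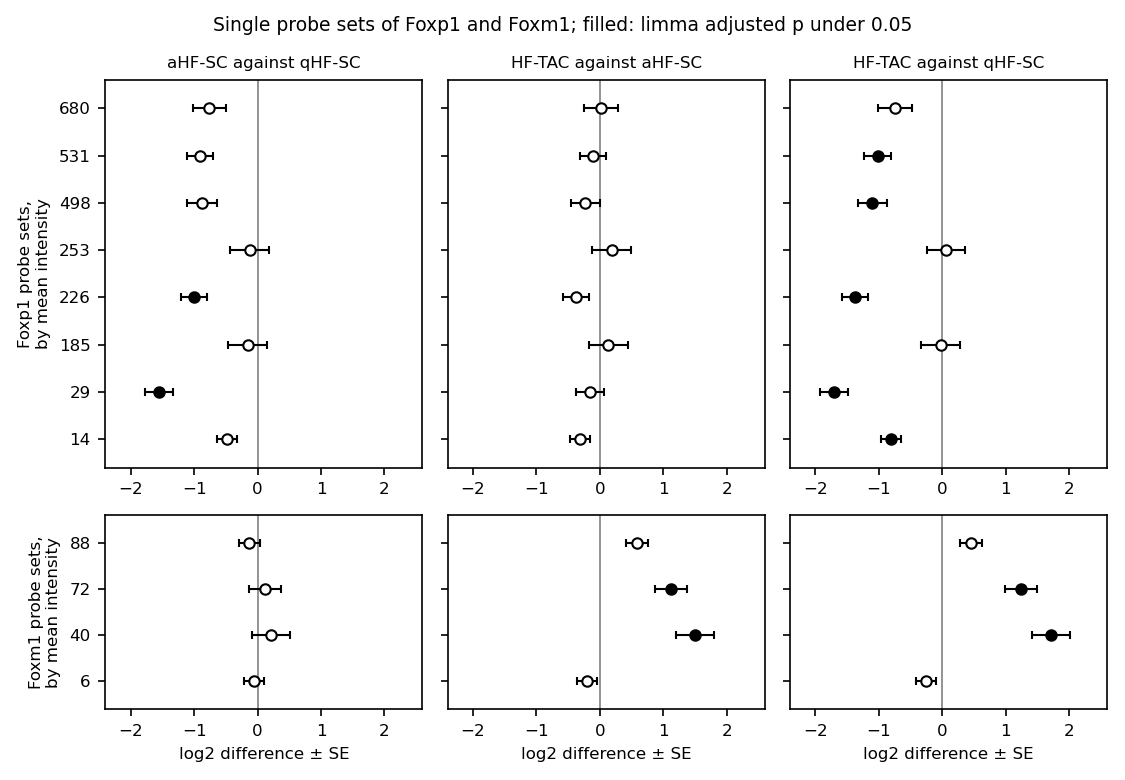
Log2 difference ± SE (x axis) of each Foxp1 probe set (8, top) and Foxm1 probe set (4, bottom) in the 3 comparisons, labelled by mean intensity on the y axis; filled points passed limma's adjusted p of 0.05 over 34945 probe sets. For Foxp1, 5 of 8 probe sets are filled and lower in HF-TAC against qHF-SC, and for Foxm1 2 of 4 are filled and higher in both HF-TAC comparisons.

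Foxc1 had intensities of 779 and 832 in qHF-SC, 498 and 699 in aHF-SC, then 609 and 322 in HF-TAC. Both qHF-SC arrays were the highest, and the other groups overlapped. The difference of -0.86 ± 0.31 on the log2 scale between HF-TAC and qHF-SC did not pass (limma adjusted p 0.084), and it was -1.32 without HF-TAC replicate 1 (adjusted p 0.011). The second Foxc1 probe set was lower by -1.08 (limma adjusted p 0.015 over probe sets). It was not called once qHF-SC replicate 1 (adjusted p 0.081), qHF-SC replicate 2 (0.080) or HF-TAC replicate 2 (0.069) was removed.

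Foxp4, a relative of Foxp1, had intensities of 81.2 and 90.6 in qHF-SC, 74.1 and 100.4 in aHF-SC, then 52.1 and 39.7 in HF-TAC. Both HF-TAC arrays were below all stem cell arrays, and the stem cell groups overlapped. The gene was 1.90-fold lower in HF-TAC than in aHF-SC (log2 -0.92 ± 0.21, limma adjusted p 0.024) and 1.89-fold lower than in qHF-SC (log2 -0.92 ± 0.21, limma adjusted p 0.017). The first call ended without aHF-SC replicate 2 (adjusted p 0.14), without HF-TAC replicate 2 (0.11) and with 20 added to each intensity (0.052). The other was lost on removing qHF-SC replicate 1 (adjusted p 0.059), qHF-SC replicate 2 (0.10) or HF-TAC replicate 2 (0.087). Another Foxp4 probe set was lower in HF-TAC by -0.76 against aHF-SC (limma adjusted p 0.066 over probe sets) and -0.82 against qHF-SC (0.034). The third, with a mean intensity of 44.3, gave -0.17 and -0.081 and was not called. Foxp2, with intensities of 16.4 and 19.0 in qHF-SC, 18.9 and 13.3 in aHF-SC, then 18.0 and 14.7 in HF-TAC, was at background.

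The list built around Foxc1 and Foxp1, 17 measured genes of stem cell quiescence and its signals, had 2 higher and 7 lower in HF-TAC than in aHF-SC (median log2 difference -0.61), where 8.97% and 8.57% of all genes were. It had 3 higher and 7 lower than in qHF-SC (median -0.79), where 13.4% and 12.9% of all genes were. Fgf18, a growth factor of resting follicles, had mean intensities of 225 ± 13.1 (SD, n = 2) in qHF-SC, 167 ± 59.1 in aHF-SC, then 14.2 ± 3.41 in HF-TAC, where it was at background. The limma adjusted p for HF-TAC was 0.00012 against qHF-SC and 0.00046 against aHF-SC. The log2 differences of -4.01 and -3.54 were -2.84 and -2.42 with 20 added to each intensity. Nfatc1, a transcription factor of quiescent bulge cells, fell by 2.63 on the log2 scale from qHF-SC to HF-TAC, or by 1.31 with its probe sets averaged, and the ligand gene Bmp6 fell 5.72-fold from aHF-SC to HF-TAC. Bmp4, another ligand, went the other way, from 20.1 on both aHF-SC arrays to 241 ± 143 in HF-TAC, so that its rise of 3.44 on the log2 scale is over a background signal. That rise was 2.58 with 20 added to each intensity, and 4.09 and 2.80 on leaving out HF-TAC replicates 1 and 2. Activated stem cells had 1 member higher, Bmp6, and 2 were lower, Cdkn1c and Id2, beside 3.07% and 3.21% of all genes. In that comparison 0 members were called without qHF-SC replicate 2, 1 was higher and 1 lower without qHF-SC replicate 1, and 2 were higher and 0 lower without aHF-SC replicate 1. Lhx2, Sox9, Nfatc1 and Tcf7l1 of this list are also bulge markers, whose 8 genes summed to 38111 to 39753 in qHF-SC, 29904 to 36259 in aHF-SC and 7015 to 9653 in HF-TAC.

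Foxm1, the mitotic Fox factor, passed no test at gene level. Its probe set with the highest mean had intensities of 79.4 and 80.5 in qHF-SC, 74.2 and 71.7 in aHF-SC, then 97.4 and 123 in HF-TAC. Both HF-TAC arrays were the highest and both aHF-SC arrays the lowest. The log2 difference of 0.59 ± 0.17 between HF-TAC and aHF-SC missed the threshold (limma adjusted p 0.051), and that of 0.45 ± 0.17 against qHF-SC did not pass (limma adjusted p 0.090). Without HF-TAC replicate 1 the first was 0.76 and passed (adjusted p 0.036). With the mean of the gene's 4 probe sets both passed, at 0.75 (adjusted p 0.034) and 0.79 (adjusted p 0.020).

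Tested singly, 2 of the 4 Foxm1 probe sets were higher in HF-TAC than in aHF-SC, with 7.30% of all probe sets called higher, and the same 2 were higher than in qHF-SC, with 12.4% called higher. The probe set with a mean intensity of 39.6 was higher than in qHF-SC by 1.72 on the log2 scale (limma adjusted p 0.0058), and its limma adjusted p against aHF-SC was 0.017. Its means of 21.2 in qHF-SC and 24.8 in aHF-SC were under the background level, and that in HF-TAC was 72.9. The probe set with a mean of 71.7 gave 1.12 against aHF-SC (limma adjusted p 0.023) and 1.25 against qHF-SC (0.0095). Between the stem cell groups 0 of the 4 were higher at the threshold, with 2.72% of all probe sets called higher. Against aHF-SC the count was 1 without qHF-SC replicate 1, qHF-SC replicate 2, aHF-SC replicate 1 or HF-TAC replicate 2, 0 without aHF-SC replicate 2, and 3 without HF-TAC replicate 1. Against qHF-SC it was 1 and 0 on leaving out qHF-SC replicates 1 and 2.

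Most genes of the joint list of MuvB subunits, partners and mitotic targets of Foxm1 were called higher at each step. Of 27 measured, activated stem cells had 16 higher than quiescent ones and 0 lower, where 3.07% and 3.21% of all genes were, with a median log2 difference of 1.84. Those 16 were the partner gene Mybl2 and mitotic targets, with no MuvB subunit among them. In HF-TAC 22 were higher and 0 lower than in aHF-SC (median 2.25), where 8.97% and 8.57% of all genes were. Against qHF-SC 23 were higher and 1 lower (median 4.40), where 13.4% and 12.9% of all genes were. The cyclin Ccnb2 had mean intensities of 15.0 ± 4.30 (SD, n = 2) in qHF-SC, 198 ± 90.7 in aHF-SC, then 1096 ± 249 in HF-TAC, so that qHF-SC was at background, and the limma adjusted p was 0.0035 for the first step. Its log2 difference there was 3.67, or 2.58 with 20 added to each intensity. Cdc20, which switches on the ubiquitin ligase of anaphase, rose by 3.09 on the log2 scale from qHF-SC to aHF-SC, from 80.4 ± 11.0 to 728 ± 355, or by 2.26 with its probe sets averaged. The kinase gene Bub1 rose by 3.15 from aHF-SC to HF-TAC, from 63.7 ± 45.7 to 493 ± 109. It rose by 3.96 and 2.34 on leaving out aHF-SC replicates 1 and 2, and by 2.02 with its probe sets averaged. These named calls held when any 1 array was left out. The 16 calls of the first step fell to 3 when qHF-SC replicate 2 was left out, to 9 when aHF-SC replicate 1 was, and to 5 with 20 added to each intensity. All genes called higher in that comparison numbered 558, and 54, 131 and 188 in those same fits.

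The remaining called genes, Foxj2 and Foxk2, differed between the ends of the lineage. Foxj2 had intensities of 288 and 331 in qHF-SC, 173 and 304 in aHF-SC, then 123 and 142 in HF-TAC. The HF-TAC arrays were below all others, and the aHF-SC arrays were spread from near the HF-TAC to the qHF-SC level. It was 2.34-fold lower in HF-TAC than in qHF-SC (log2 -1.22 ± 0.27, limma adjusted p 0.013). The call was lost on leaving out qHF-SC replicate 2 (adjusted p 0.083) or HF-TAC replicate 1 (0.057), and with the mean of the gene's 2 probe sets (-0.50, adjusted p 0.11). Against aHF-SC the difference of -0.79 ± 0.27 did not pass (limma adjusted p 0.088), and it passed without aHF-SC replicate 1 (-1.20, adjusted p 0.016).

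Foxk2, of a class that represses autophagy genes in fed cells, had intensities of 208 and 266 in qHF-SC, 375 and 386 in aHF-SC, then 333 and 520.1 in HF-TAC. Both qHF-SC arrays were the lowest, and aHF-SC and HF-TAC overlapped. It was 1.77-fold higher in HF-TAC than in qHF-SC (log2 0.82 ± 0.24, limma adjusted p 0.041). Leaving out any of these ended the call: qHF-SC replicate 1 (adjusted p 0.21), qHF-SC replicate 2 (0.072), either aHF-SC array (0.064) or HF-TAC replicate 2 (0.17). It also ended with the mean of the gene's 5 probe sets (adjusted p 0.053) and with 20 added to each intensity (0.076). Another probe set was higher by 1.21 (limma adjusted p 0.0049) and passed when any 1 array was left out. Those with mean intensities of 277, 38.5 and 13.8 gave 0.57, -0.21 and 0.072 and were not called. The difference of 0.69 ± 0.24 between aHF-SC and qHF-SC did not pass (limma adjusted p 0.15). Foxk1, its close relative, had 158 and 163 in qHF-SC, 149 and 237 in aHF-SC, then 119 and 178 in HF-TAC, with overlapping groups.

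**Figure D4:**
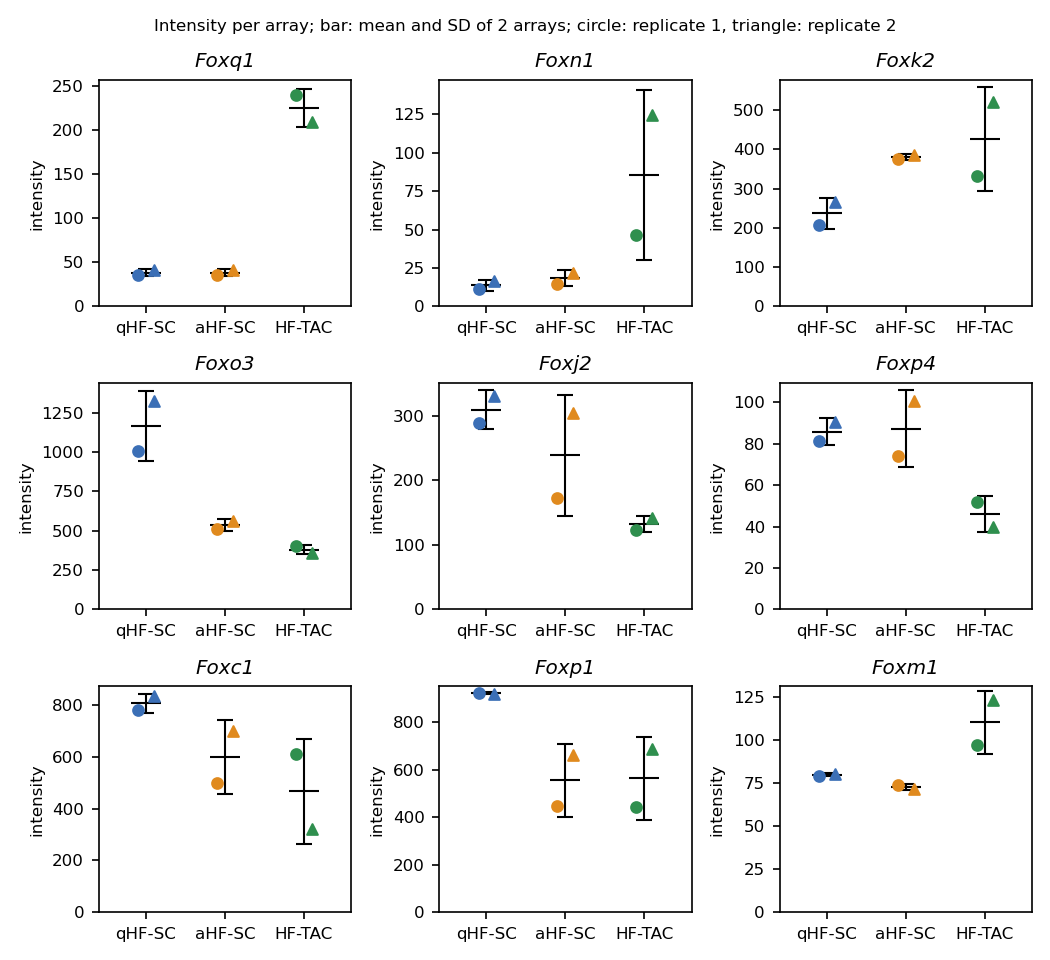
Intensity per array (y axis, from 0) of the 6 called Fox genes and of Foxc1, Foxp1 and Foxm1 in the 3 groups (x axis); bars are the mean and SD of 2 arrays. HF-TAC arrays stand above all others for Foxq1, Foxn1 and Foxm1 and below all others for Foxo3, Foxj2 and Foxp4, and the qHF-SC arrays stand above all others for Foxo3, Foxc1 and Foxp1.

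Other members above background passed no test at gene level. Foxj3 had intensities of 605 and 562 in qHF-SC, 425 and 542 in aHF-SC, then 294 and 435 in HF-TAC, and its difference of -0.70 ± 0.23 between HF-TAC and qHF-SC had a limma adjusted p of 0.058. It passed without HF-TAC replicate 2 (-0.99, adjusted p 0.023) and after rescaling to the 75th percentile (-0.73, adjusted p 0.027) or quantile normalization (-0.77, adjusted p 0.027). Foxn3 had means of 510.5 ± 33.5 (SD, n = 2) in qHF-SC, 474 ± 38.1 in aHF-SC, then 394 ± 21.2 in HF-TAC, and its differences did not pass. Foxn2 was lowest in aHF-SC, at 125 and 107 against 150.4 and 177 in qHF-SC and 163 and 173 in HF-TAC, and neither difference passed. The other Foxn2 probe set did not return to the qHF-SC level in HF-TAC. Against qHF-SC it was lower by -0.70 for aHF-SC (limma adjusted p 0.041 over probe sets) and by -0.76 for HF-TAC (0.0088). Between HF-TAC and aHF-SC it gave -0.065 and was not called. Its highest group mean was 14.1, so these calls lie under the background level. Foxf1 had 36.7 and 46.8 in qHF-SC, 49.6 and 42.7 in aHF-SC, then 44.4 and 43.1 in HF-TAC. Foxn4 lay between 57.4 and 68.6 and Foxh1 between 35.8 and 48.6 over the 6 arrays.

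The 18 Fox genes at background are largely those of endoderm, mesoderm, neural and immune lineages. They are Foxa1, Foxa2, Foxa3, Foxb1, Foxb2, Foxc2, Foxd1, Foxd2, Foxd3, Foxd4, Foxe3, Foxf2, Foxi1, Foxj1, Foxl1, Foxp2, Foxp3 and Foxs1. Foxp3, the factor of regulatory T cells, had intensities of 7.37 to 9.28 over the 6 arrays. Foxd1, a factor of dermal lineages, had 6.72 and 8.19 in qHF-SC, 6.45 and 6.61 in aHF-SC, then 7.42 and 6.66 in HF-TAC. Foxf2, of mesenchyme, had 12.3 and 11.7 in qHF-SC, 11.4 and 10.9 in aHF-SC, then 10.5 and 11.0 in HF-TAC. Foxs1, known in neural crest derivatives and pericytes, had 15.8 and 13.7 in qHF-SC, 16.4 and 18.7 in aHF-SC, then 22.1 and 16.4 in HF-TAC. None of these 18 passed a test. A low intensity bounds what these probe sets could show and is not evidence that the transcript is absent.

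Foxq1, Foxf2 and Foxc1 follow one another on chromosome 13 with 0 protein-coding genes between them in the RefSeq gene table. Foxq1 rose in HF-TAC, Foxf2 was at background in every group, and Foxc1 had its highest arrays in qHF-SC. On chromosome 8 Foxf1 was a little above background, with group means of 41.8 to 46.1, and its other probe set, with a mean of 14.6, was under the level. Foxc2, separated from Foxf1 by Mthfsd, and Foxl1 next to Foxc2 were at background.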

How the data were processed

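RNA of the 6 samples was hybridised to Affymetrix arrays of 45101 probe sets. The deposited values are intensities on a linear scale (3.83 to 31188); RMA, which subtracts background, quantile-normalises and summarises probes, is named without version or role in the submitters' processing notes. RMA compresses large folds and dim signals. Array medians were 22.8 to 24.0, and the number of arrays limits the precision. Of the probe sets, 34945 carried 1 gene symbol in the platform annotation, 932 several and 9160 none. Using limma 3.58.1 in R 4.3.3, log2 intensities of 1 probe set per gene entered a single model with a mean for each of the 3 groups and 3 residual degrees of freedom, tested two-sided. The fit was tested on simulated data. Dim genes were kept in. All 37 Fox symbols matched the RefSeq gene table by Entrez identifier.

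The Fox genes, the companion and marker lists and the alternatives were chosen with earlier results of these data known. Every Fox gene past the threshold or with a known follicle, FoxO or division role is given on every array, and the rest by range, with some singled out after their values were seen. From each companion list up to 4 members with the largest changes past the threshold were eligible. The lists share members, so their counts are not independent. The FoxO target list shares Insr and Irs2 with the PI3 kinase list and Rbl2 with the Foxm1 list. It shares Cdkn1a and Cdkn1b with the quiescence list. Alternatives were the mean of probe sets, probe sets without _x_at and _s_at, other scalings, a dim filter, an added offset, array weights, another variance prior, a replicate block and leaving out each array.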

Additional observations from a re-analysis of the deposited data

How the results depend on the processing

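No Fox gene was called higher in aHF-SC than in qHF-SC under any alternative. The number lower there was 1 in the fit as reported, Foxo3, whose call ended with the mean of its probe sets. This number was 3 when a gene counted through any of its probe sets, through Foxo3, Foxp1 and Foxn2. That alternative was chosen after seeing the data. Foxn2 entered it through a probe set under the background level in every group, which also counted in HF-TAC against qHF-SC. With 20 added to each intensity, HF-TAC against aHF-SC had 1 Fox gene higher and 0 lower. In HF-TAC against qHF-SC, 5 were lower after rescaling to the 75th percentile, 5 after quantile normalization and 6 through any probe set, against 3 in the fit as reported. Leaving out 1 array at a time gave 0 to 1 lower on activation of the stem cells, 1 to 3 higher and 0 to 2 lower in HF-TAC than in aHF-SC, and 2 to 3 higher and 1 to 4 lower in HF-TAC than in qHF-SC. A lone remaining array was assumed to vary like the other groups. For Foxc1 in HF-TAC against aHF-SC these fits spanned -0.87 to 0.045 on the log2 scale. Of the values of named Fox differences under alternatives, 392 kept their direction and side of the threshold, 23 lost the call, 19 gained one and 1 reversed; the cause was not tested. Rescaling moved the median of all genes by less than 0.1. Same-numbered arrays did not deviate together (r of 0.061, 0.084 and -0.13). With 2 arrays a group this cannot settle whether the numbers pair the samples, and the labels do not say. With the replicate block the counts were 0 and 1, 2 and 1, and 3 and 4 Fox genes higher and lower in the 3 comparisons, and Foxp1 was called lower in HF-TAC than in qHF-SC (adjusted p 0.047). A crossed pairing of qHF-SC with HF-TAC arrays, chosen after seeing the data, gave 2 higher and 4 lower. The number of Fox genes at background was 18, and 14 with a level of 18.9, the median of the silent genes, or 21 with the mean of a gene's probe sets.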
